A study of Mus musculus with 32 samples.

Results

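Methionine and one-carbon metabolism was followed in mouse liver through 9 genes: Mat1a, Gnmt, Ahcy, Bhmt, Cbs, Cth, Shmt1, Dmgdh and Pemt. They were chosen by name, as enzymes of the methionine cycle and of the reactions that feed it or drain it. Earlier results of these data were known when the choice was made. All 9 were among the 20076 genes of the count table, and all 9 passed the filter on low counts together with 11566 genes in all. In short, 4 of them rose when the mice were fasted (Mat1a, Bhmt, Ahcy and Dmgdh), 2 fell (Cbs and Pemt), and the rise of Mat1a was far larger on the low-fat than on the high-fat diet. Loss of MCAD changed none of them past the threshold.

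The liver converts methionine into S-adenosylmethionine, the methyl donor of the cell, through the methionine adenosyltransferase encoded by Mat1a, the form typical of adult hepatocytes. Methyltransferases such as Gnmt, which methylates glycine, and Pemt, which makes phosphatidylcholine from phosphatidylethanolamine, use that donor and release S-adenosylhomocysteine, and Ahcy splits the latter into homocysteine and adenosine. Homocysteine is either remethylated to methionine by Bhmt with betaine as donor or passed by Cbs and then Cth into cysteine, while Dmgdh and Shmt1 carry the one-carbon units of dimethylglycine and serine into the folate pool.

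The livers came from male C57BL/6J mice that were wild type (WT) or homozygous for a knockout of Acadm (KO), the gene of medium-chain acyl-CoA dehydrogenase (MCAD), an enzyme of mitochondrial fatty acid oxidation. Mice of both genotypes received a semi-synthetic low-fat (LF) or high-fat (HF) diet for 6 weeks and were killed fed or after 16 h of fasting, which gives 8 groups of 4 mice. The labelled ages ran from 7.5 to 16, with no unit. The knockout is not limited to hepatocytes, and in whole-liver RNA fewer cells of a type and less RNA per cell cannot be told apart. Levels are given as CPM, counts scaled to library size with the trimmed mean of M values, since depth ran from 2031053 to 4292200 counts. Of the 32 mice, 30 were used, with 3 mice left in WT LF fed and in KO HF fasted and 4 in each of the others. The KO HF fasted library left out (replicate 4) carried summed markers of heart muscle at 43203 CPM, against 5.49 to 253 in the 30 mice, and at most 52.3 CPM of any of the 9 genes. The WT LF fed library left out (replicate 2) held 105 CPM of Bhmt and 66.5 of Ahcy, against 391 to 530 and 160 to 184 in the other mice of its group. Its Mat1a was higher than theirs, at 0.274% of all counts against 0.18 to 0.23%. Its pericentral hepatocyte markers summed to 1346 CPM, against 4634 to 5963 in the others. 

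The 10 hepatocyte markers summed to 42568 to 65698 CPM in the 30 livers, and none was at or below 3 counts in all of them. Acadm ran from 8.98 to 37.1 CPM in KO mice and from 190 to 748 CPM in WT mice, with no overlap. Summed markers of acinar pancreas reached 17877 CPM in WT HF fasted replicate 2 and 2618 CPM in KO HF fed replicate 1, and markers of adrenal cortex reached 289 CPM in KO LF fasted replicate 3 and 124 CPM in replicate 4. Together with WT HF fed replicate 4, which had 156 CPM of heart markers, these 5 mice were left out in an added fit. Over the 4 strata together, the 4 rises and 2 falls on fasting were also called in the 25 remaining mice.

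Sequences upstream of the annotated start were available from RefSeq (GRCm38.p6) for 7 of the 9 genes, and not for Mat1a and Cth. They are shown for 4 genes: Bhmt and Ahcy, which rose on fasting, Cbs, which fell, and Dmgdh, whose start lies 130 bases from that of Bhmt2 on the opposite strand. Bases that GENCODE draws as part of an exon were removed. Capitals mark matches to 1 of 7 motifs searched on both strands: the E-box core CACGTG, the cyclic AMP response element TGACGTCA, the forkhead motif TGTTTAC, the HNF4 motif CAAAGTCCA, the ATF4 motif TGATGCAA, the steroid receptor motif AGAACA and the nuclear receptor motif AGGTCA. No matches overlapped.
Bhmt, chr13:93637962-93638008, minus strand: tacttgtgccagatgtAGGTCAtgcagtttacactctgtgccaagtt
Ahcy, chr2:155074498-155074747, minus strand: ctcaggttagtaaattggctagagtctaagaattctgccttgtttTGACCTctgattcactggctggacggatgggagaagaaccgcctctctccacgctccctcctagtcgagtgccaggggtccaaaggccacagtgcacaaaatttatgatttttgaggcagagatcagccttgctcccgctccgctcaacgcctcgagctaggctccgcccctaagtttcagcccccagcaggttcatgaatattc
Cbs, chr17:31637239-31637455, minus strand: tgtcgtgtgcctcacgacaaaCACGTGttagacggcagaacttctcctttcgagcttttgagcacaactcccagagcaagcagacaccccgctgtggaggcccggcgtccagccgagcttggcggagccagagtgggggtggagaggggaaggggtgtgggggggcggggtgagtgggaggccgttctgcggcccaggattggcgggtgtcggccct
Dmgdh, chr13:93674303-93674432, plus strand: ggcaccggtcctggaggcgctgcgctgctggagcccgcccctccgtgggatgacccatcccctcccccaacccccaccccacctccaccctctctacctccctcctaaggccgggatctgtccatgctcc

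The hexamer AGGTCA, a site read by many nuclear receptors, occurred 3 times in the 250 bases before the RefSeq start of Bhmt, at 234, 72 and 47 bases, the last 2 inside the first exon as GENCODE draws it. It occurred once each for Ahcy, at 205 bases, and Gnmt, at 181 bases. Of 32851 promoter windows of the same length, 14% held it at least once and 0.131% held it 3 times or more. CACGTG, the E-box core, lay 229 bases before the start of Cbs and was present in 6.02% of windows. The remaining 5 motifs were found before none of the 7 genes. They were present in 1.55% (TGACGTCA), 3.17% (TGTTTAC), 0.384% (CAAAGTCCA), 0.791% (TGATGCAA) and 16.1% (AGAACA) of windows. A match of letters does not show binding.

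Fasting was the condition that moved these genes. Averaged over the 4 strata of genotype and diet, 4 of the 9 were higher in fasted livers and 2 lower at a Benjamini-Hochberg adjusted p below 0.05 in the quasi-likelihood fit of edgeR, and 3 did not pass. Of all genes tested 18.9% were called in this comparison, 9.77% higher and 9.14% lower. The median log2 fold change was 0.32 over the 9 genes and -0.002 over all genes tested. The plot of counts by liver shows each of the 9 genes in the 8 groups.

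**Figure D1:**
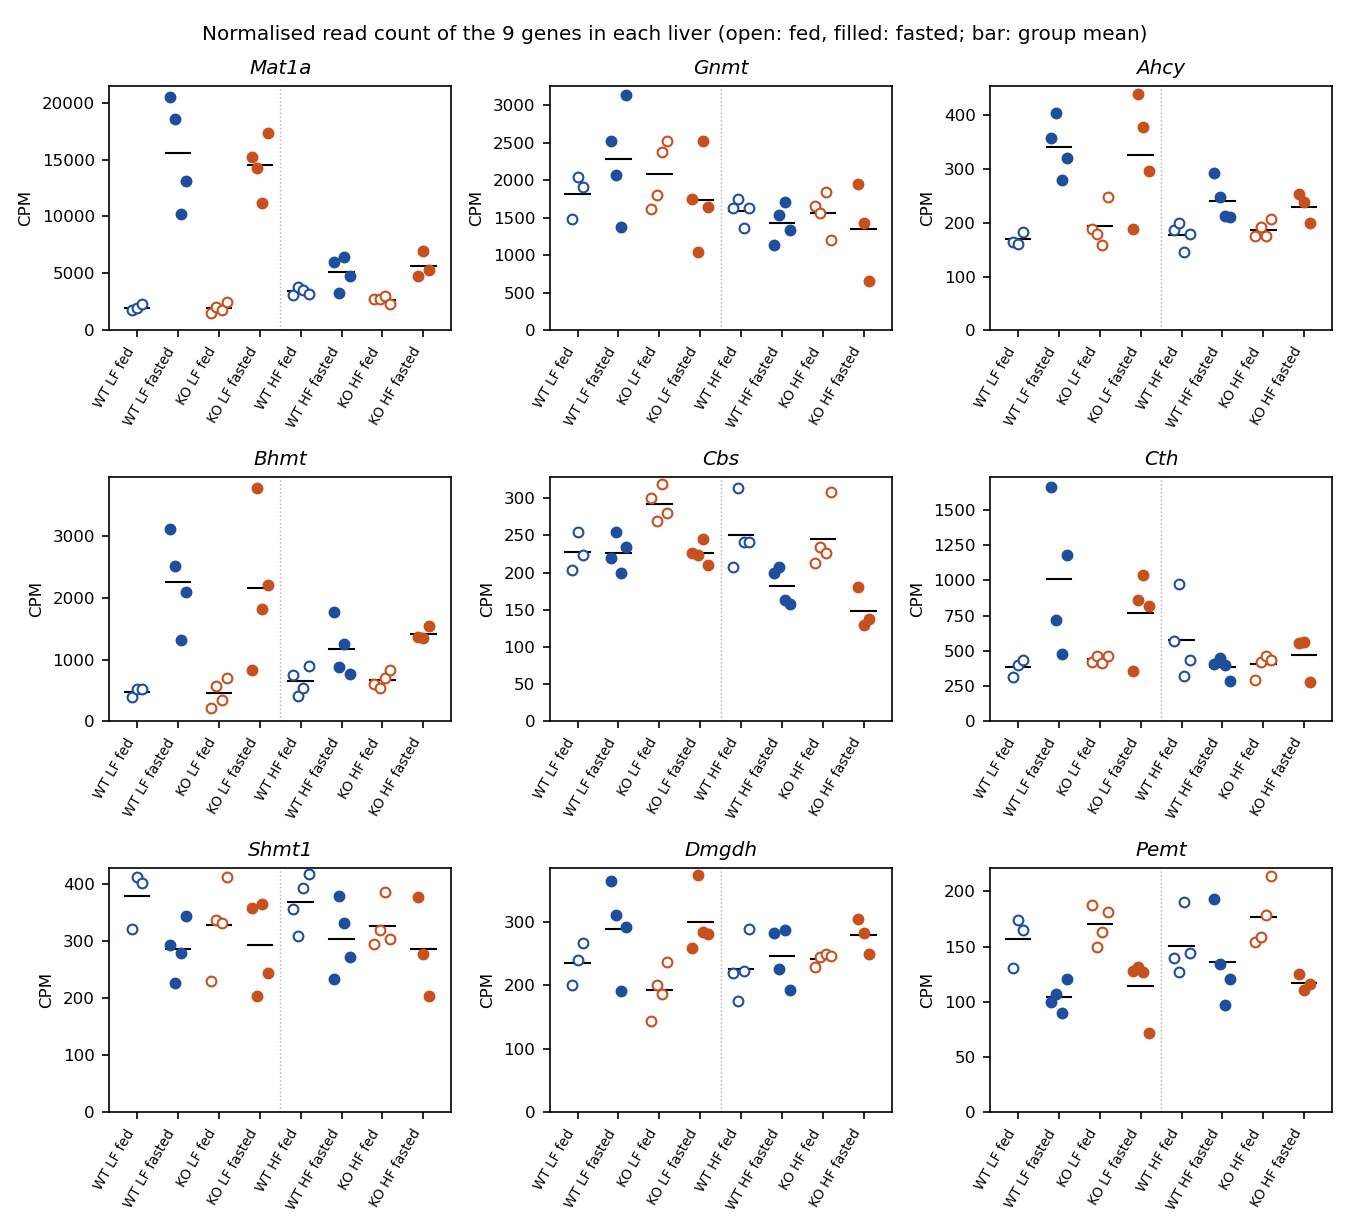
Normalised read count (CPM, linear axes from 0) of the 9 genes in each of the 30 livers, by group: blue is WT, orange KO, open circles fed and filled circles fasted, and the bar is the group mean. Mat1a in fasted LF mice lay between 10256 and 20502 CPM, above every liver of the other 6 groups.

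Mat1a (chr14:41105035-41124412, plus strand) had the smallest p of the 9 and ranked 2 of 11566 genes for the average effect of fasting. In fed WT mice on LF diet it stood at 1753, 1932 and 2290 CPM, and in fasted ones at 20502, 18587, 10256 and 13096 CPM. In KO mice on LF diet the fed livers held 1508, 2032, 1779 and 2459 CPM and the fasted ones 15220, 14282, 11213 and 17324 CPM. Every fasted LF liver was thus above every fed one by a wide margin, in both genotypes. The rise was 7.84-fold in WT (log2 fold change 2.97 ± 0.24 SE, edgeR adjusted p = 3.15e-11) and 7.46-fold in KO (2.90 ± 0.21, edgeR adjusted p = 1.69e-12).

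On HF diet the same gene rose less. Fed WT livers held 3145, 3836, 3531 and 3209 CPM and fasted ones 5991, 3319, 6470 and 4738 CPM, so that the lowest fasted liver fell among the fed ones. The WT change of 0.58 ± 0.20 did not pass (edgeR adjusted p = 0.229), and without WT HF fasted replicate 2, the liver with 17877 CPM of pancreatic markers, it was 0.74 with an adjusted p of 0.0477. In KO mice the fed livers held 2796, 2740, 2985 and 2309 CPM and the 3 fasted ones 4800, 6977 and 5294 CPM, with no overlap. That rise was 2.1-fold (1.07 ± 0.21, edgeR adjusted p = 0.0101), and the call was lost on leaving out KO HF fasted replicate 2 (adjusted p = 0.15), KO HF fed replicate 4 (adjusted p = 0.0683) or KO HF fasted replicate 3 (adjusted p = 0.0512).

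The difference between the diets was tested directly. The fasting effect on Mat1a was lower on HF than on LF by 2.11 ± 0.21 on the log2 scale (95% interval -2.54 to -1.68, edgeR adjusted p = 3.03e-08), the smallest p of all 11566 genes, of which 2.46% were called. As a share of all counts, Mat1a made up 1.02 to 1.87% in WT LF fasted, 1.05 to 1.6% in KO LF fasted, and 0.164 to 0.687% in the other 6 groups. The 6 periportal hepatocyte markers summed to 4330 to 4596 CPM in WT LF fed and 8475 to 17647 CPM in WT LF fasted livers, and to 3838 to 6092 and 4912 to 15696 CPM in KO LF. On HF diet the sums were 3843 to 9049 fed and 5192 to 8178 CPM fasted in WT, and 4081 to 4527 and 6201 to 13882 CPM in KO, so fed and fasted livers were separate in WT LF and KO HF and overlapped in the other strata. Of these markers 2 rose on fasting past the threshold, among them Pck1, the gluconeogenic enzyme (1.57 ± 0.25), 1 fell and 3 were not called. The 6 pericentral markers, of which 3 rose and 2 fell, had higher sums in fasted livers without overlap in WT LF (4634 to 5963 and 6112 to 8428 CPM) and WT HF (5725 to 7801 and 8237 to 10878 CPM). The part of either zone in the Mat1a result was not tested.

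Mat2a, which encodes the methionine adenosyltransferase subunit typical of other tissues and of dividing cells, was also counted in these livers. It rose on fasting by 0.76 ± 0.10 (edgeR adjusted p = 2.63e-07). Its fed livers held 59.3 to 108 CPM and its fasted ones 92.8 to 168 CPM. Its difference between diets was -0.11 ± 0.20 and did not pass (edgeR adjusted p = 0.897). Mat1a and Mat2a shared no run of 50 bases, the length of a read, so no read of 1 gene matches the other in full.

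Gnmt (chr17:46725664-46729168, minus strand), the glycine methyltransferase, passed in no comparison of the edgeR fit. Group means ran from 1347 ± 652 CPM (SD, n = 3) in KO HF fasted to 2277 ± 737 CPM (SD, n = 4) in WT LF fasted. Livers of 1 group differed widely, from 1382 to 3132 CPM in WT LF fasted and from 658 to 1956 CPM in KO HF fasted. The average fasting effect was -0.08 ± 0.14, with a 95% interval of -0.36 to 0.21 (edgeR adjusted p = 0.771). The average diet effect was -0.41 ± 0.14, HF below LF (edgeR adjusted p = 0.0955). DESeq2 called it (-0.41, adjusted p = 0.0455), and so did edgeR without KO HF fasted replicate 1 (adjusted p = 0.0277), KO LF fasted replicate 2 (adjusted p = 0.0387) or WT LF fasted replicate 3 (adjusted p = 0.0388).

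Ahcy (chr2:155059310-155074497, minus strand), the S-adenosylhomocysteine hydrolase, rose on fasting in LF mice. Fed WT LF livers held 164, 160 and 184 CPM and fasted ones 358, 405, 280 and 321 CPM, without overlap. In KO LF mice the fed livers held 188, 180, 159 and 248 CPM and the fasted ones 189, 440, 379 and 297 CPM, and replicate 1 of the fasted group lay within the fed range. The WT rise was 2.01-fold (1.01 ± 0.20, edgeR adjusted p = 7.32e-04) and the KO rise 1.69-fold (0.75 ± 0.18, edgeR adjusted p = 0.00363). On HF diet the WT livers were again separate (145 to 200 CPM fed, 211 to 292 CPM fasted) and the KO livers overlapped, but the changes of 0.43 ± 0.18 and 0.30 ± 0.20 did not pass (edgeR adjusted p = 0.416 and 0.842). The difference between diets, -0.52 ± 0.19, did not pass (edgeR adjusted p = 0.169).

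Of the distinct 50-base runs in Ahcy transcripts, 68.7% also occur in another gene (66% of all its runs in the retrogene Gm4737), and in the last 500 bases the share was 28.2%. A 3′ read from those stretches cannot be placed, and the counts of both genes are uncertain to that extent. Gm4737 itself was counted at 18.5 to 101 CPM and rose by 0.83 ± 0.11 (edgeR adjusted p = 5.18e-07). How far these reads come from Ahcy was not tested.

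Bhmt (chr13:93616675-93637961, minus strand), the betaine-homocysteine methyltransferase, also rose on fasting in LF mice, by less than Mat1a. In WT LF mice it went from 391, 524 and 530 CPM fed to 3108, 2510, 1311 and 2090 CPM fasted. In KO LF mice it went from 220, 567, 343 and 708 CPM to 830, 3771, 1818 and 2205 CPM. Neither pair of groups overlapped, but the lowest KO fasted liver, replicate 1, was near the highest fed one. The rises were 4.68-fold in WT (2.23 ± 0.44, edgeR adjusted p = 0.0017) and 4.7-fold in KO (2.23 ± 0.40, edgeR adjusted p = 3.58e-04).

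On HF diet Bhmt stood at 408 to 892 CPM in fed WT livers and 770 to 1766 in fasted ones, which overlapped. The KO livers held 544 to 827 CPM fed and 1351 to 1538 CPM fasted and did not overlap. The changes of 0.84 ± 0.38 and 1.09 ± 0.41 did not pass (edgeR adjusted p = 0.501 and 0.418), though the KO change did when only those 2 groups were fitted (1.08, adjusted p = 0.00665). The difference between diets, -1.26 ± 0.40, also missed the threshold (edgeR adjusted p = 0.106). It passed with age as a term (-1.42, adjusted p = 0.0215), in DESeq2 (-1.27, adjusted p = 0.0329) and without KO LF fasted replicate 1 (-1.40, adjusted p = 0.0356).

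That liver, KO LF fasted replicate 1, was the lowest of its group for Ahcy (189 CPM), Bhmt (830 CPM), Cth (359 CPM) and Dmgdh (259 CPM), while its Mat1a level of 15220 CPM was the second highest. It stood apart in many marker sums. Hepatocyte markers were at 44705 CPM against 59862 to 64924 in the other 3 livers of the group, periportal ones at 4912 against 11647 to 15696, and pericentral ones at 4295 against 7208 to 8832. Kupffer cell markers were at 505 CPM against 190 to 236, endothelial ones at 451 against 278 to 340, and erythroid ones at 1287 against 533 to 628. Their part in the levels of the 4 genes was not tested.

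Bhmt shared 26.1% of its 50-base runs with other genes, mainly the retrogene Gm5096 (24.1%) and the pseudogene Bhmt-ps1 (13.5%), and 17.1% in its last 500 bases. Its paralog Bhmt2, which remethylates homocysteine with S-methylmethionine, shared 0.174% and was counted apart. Bhmt2 lies next to Bhmt on chromosome 13 (93655720 to 93674302, 17758 bases away) and rose by 0.33 ± 0.08 (edgeR adjusted p = 0.00349), from 205 to 315 CPM fed to 245 to 496 CPM fasted.

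The plot of fasting effects sets the 4 strata side by side for the 9 genes. In WT LF mice 4 of the 9 passed (Mat1a, Bhmt, Ahcy and Cth), all higher, where 7.54% of all genes passed. In KO LF mice 5 passed, Mat1a, Bhmt, Ahcy and Dmgdh higher and Pemt lower, where 13.8% of all genes passed. In KO HF mice 2 passed, Mat1a higher and Cbs lower, with 0.527% of all genes. In WT HF mice edgeR called none of the 9, with 0.424% of all genes, and DESeq2 and limma voom called 0 as well. There 4 of the 9 had an unadjusted edgeR p under 0.05, as did 1063 of all 11566 genes. Counted by overlap, the fed and fasted livers were separate for 5 of the 9 genes in WT LF, 5 in KO LF, 2 in WT HF and 5 in KO HF. Over all genes the share was 20.1%, 13.7%, 5.93% and 10.5% in the same order.

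**Figure D2:**
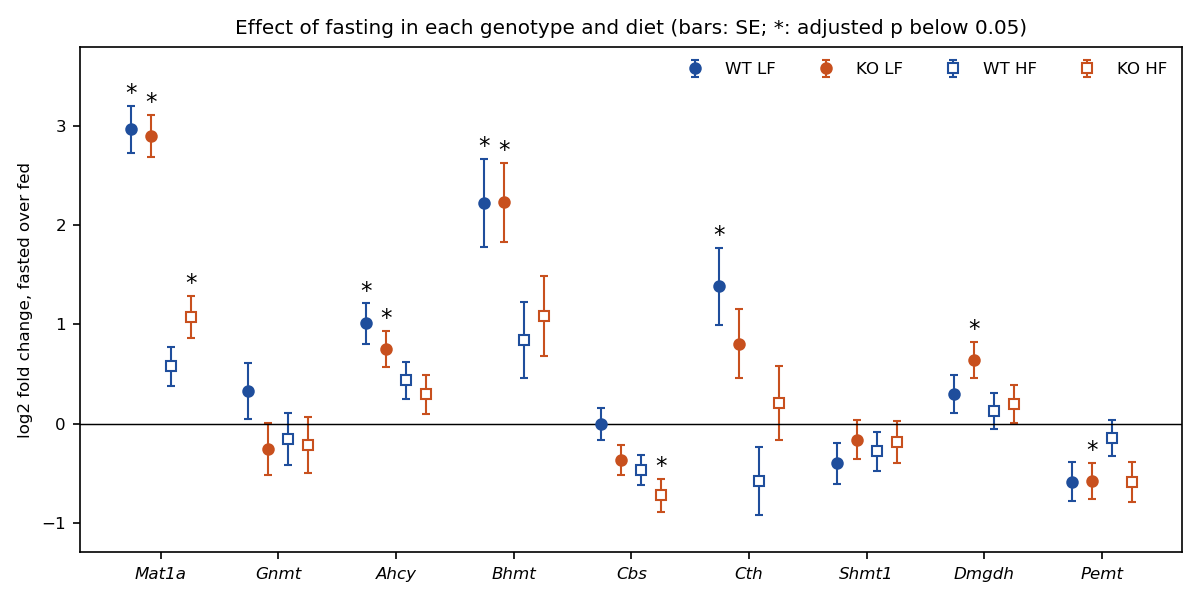
Log2 fold change of fasted over fed livers (vertical axis, bars are 1 SE) for the 9 genes in WT (blue) and KO (orange) mice on LF (filled circles) or HF diet (open squares). Asterisks mark an adjusted p below 0.05, and on the LF diet Mat1a is near 3 and Bhmt near 2.2 in both genotypes.

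Cbs and Cth, the enzymes of transsulfuration, did not move together. Cbs (chr17:31608894-31637238, minus strand), which joins homocysteine to serine, fell on fasting by 0.39 ± 0.08 on the log2 scale (edgeR adjusted p = 2.78e-04). In WT LF mice the groups overlapped, at 204, 255 and 224 CPM fed and 219, 254, 199 and 235 CPM fasted (-0.01 ± 0.16, 95% interval -0.35 to 0.34). In the other 3 strata the fasted livers were all below the fed ones: 210 to 245 against 269 to 319 CPM in KO LF, 158 to 207 against 207 to 314 CPM in WT HF, and 129 to 180 against 213 to 308 CPM in KO HF. Of these only KO HF passed alone (-0.72 ± 0.17, edgeR adjusted p = 0.0314), and leaving out 1 of 5 livers of that stratum in turn ended the call, with adjusted p up to 0.331. The difference between diets was -0.41 ± 0.16 (edgeR adjusted p = 0.207).

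Cth (chr3:157894248-157925077, minus strand), which splits cystathionine into cysteine, rose in WT LF mice. Fed livers held 318, 403 and 439 CPM and fasted ones 1665, 721, 477 and 1180 CPM, all above the fed range though widely spread among themselves. The rise was 2.61-fold (1.39 ± 0.39, edgeR adjusted p = 0.0268), and leaving out any of 5 livers of the 2 groups ended the call (adjusted p up to 0.123), as did lane as a term (1.26, adjusted p = 0.0541). The call was also lost with only the 2 groups (adjusted p = 0.146), with no filter (adjusted p = 0.0576) and with all 32 mice (adjusted p = 0.261). In KO LF mice 3 fasted livers (864, 1040 and 820 CPM) lay above the fed ones (417 to 465 CPM) and replicate 1 below them (0.81 ± 0.35, edgeR adjusted p = 0.138). On HF diet the estimates were -0.58 ± 0.35 in WT and 0.21 ± 0.37 in KO.

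The average fasting effect on Cth, 0.45 ± 0.18, missed the threshold (edgeR adjusted p = 0.0839). DESeq2, which called 7 of the 9 genes and 2383 of all 11566 for fasting, called it (0.45, adjusted p = 0.0291). So did edgeR without KO LF fasted replicate 1 (adjusted p = 0.0338), WT HF fed replicate 2 (adjusted p = 0.0207) or WT LF fasted replicate 3 (adjusted p = 0.0277). Its difference between diets was -1.28 ± 0.36 (edgeR adjusted p = 0.0616), and DESeq2 called it (-1.28, adjusted p = 0.0049). Leaving out KO LF fasted replicate 1 (adjusted p = 0.0261), WT HF fed replicate 3 (adjusted p = 0.0359) or WT LF fasted replicate 3 (adjusted p = 0.0185) brought it past as well.

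Shmt1 and Dmgdh feed the folate pool. Shmt1 (chr11:60788104-60811718, minus strand), the cytosolic serine hydroxymethyltransferase, was lower in fasted livers in all 4 strata but did not pass on average (-0.26 ± 0.10, edgeR adjusted p = 0.0752), though it did on leaving out any of 5 single livers (adjusted p from 0.0237 to 0.0442). Group means were 326 to 379 CPM in fed mice and 286 to 305 CPM in fasted mice, and fed and fasted livers overlapped in every stratum. Within sequencing lane 8 the change was -0.46 ± 0.11 (adjusted p = 0.0058) and within lane 7 it was -0.04 ± 0.16 (adjusted p = 0.949). The model within a lane held fasting, diet and genotype as additive terms, over 16 livers in lane 7 and 14 in lane 8. All WT LF fed livers were in lane 8, so lane 7 held no fed liver of that stratum. Lane was thus partly tied to group, also in the fits with lane as a term.

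Dmgdh (chr13:93674433-93752833, plus strand), the mitochondrial dimethylglycine dehydrogenase, rose on fasting by 0.32 ± 0.09 (edgeR adjusted p = 0.0132). The step was clearest in KO LF mice, from 144, 201, 187 and 237 CPM fed to 259, 373, 283 and 281 CPM fasted, with no overlap (0.64 ± 0.18, edgeR adjusted p = 0.0132). Leaving out KO LF fasted replicate 2 (adjusted p = 0.0647) or KO LF fed replicate 1 (adjusted p = 0.0732) ended that call. In WT LF mice the fasted liver replicate 3, at 191 CPM, lay below all 3 fed ones (200, 239 and 266 CPM). Within lanes the average effect was 0.54 ± 0.15 in lane 7 (adjusted p = 0.0521) and 0.05 ± 0.12 in lane 8 (adjusted p = 0.874).

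Pemt (chr11:59970614-60046489, minus strand), the phosphatidylethanolamine methyltransferase and a large user of methyl groups in liver, fell on fasting by 0.48 ± 0.10 on the log2 scale (edgeR adjusted p = 2.81e-04). In WT LF mice it went from 131, 174 and 165 CPM fed to 99.8, 107, 89.7 and 121 CPM fasted. In KO LF mice it went from 188, 150, 163 and 181 CPM to 128, 132, 127 and 71.6 CPM, and in KO HF mice from 154, 159, 179 and 214 CPM to 125, 111 and 116 CPM. In these 3 strata every fasted liver was below every fed one, with estimates of -0.59, -0.58 and -0.59, while WT HF livers overlapped (-0.15 ± 0.19). In the edgeR fit only the KO LF stratum passed alone (adjusted p = 0.0311), and it did not without KO LF fasted replicate 4, the liver at 71.6 CPM (-0.41, adjusted p = 0.158), without KO LF fed replicate 1 (adjusted p = 0.0841) or without KO LF fed replicate 4 (adjusted p = 0.0733). It was also lost with only the 2 groups (adjusted p = 0.122) and in the 25 livers low in markers of other tissues (-0.40, adjusted p = 0.264). The WT LF stratum (edgeR adjusted p = 0.0648) passed with lane as a term (adjusted p = 0.041), with only the 2 groups (adjusted p = 0.0148), in the 25 livers (adjusted p = 0.0496) and without any of 3 single livers (adjusted p from 0.0389 to 0.0431). Within lanes the average was -0.73 ± 0.13 in lane 8 (adjusted p = 1.78e-04) and -0.28 ± 0.15 in lane 7 (adjusted p = 0.363).

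As for Dmgdh and Pemt, the sign was the same in both lanes for the other 4 called genes. Within lane 7 and lane 8 the fasting effect was 1.55 and 2.003 for Mat1a, 1.71 and 1.35 for Bhmt, 0.67 and 0.49 for Ahcy, and -0.40 and -0.44 for Cbs. All of these passed except Cbs in lane 7 (adjusted p = 0.0929).

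The diet had a smaller part. Averaged over the 4 strata, 1 of the 9 genes passed, Mat1a, lower on HF by 0.42 ± 0.10 on the log2 scale (edgeR adjusted p = 0.0123), where 3.49% of all genes passed. That average joins opposite signs. In fasted mice HF livers were far below LF livers, 3319 to 6470 against 10256 to 20502 CPM in WT (-1.61 ± 0.20, edgeR adjusted p = 7.44e-06) and 4800 to 6977 against 11213 to 17324 CPM in KO (-1.35 ± 0.22, edgeR adjusted p = 5.05e-04). In fed mice the estimates were the other way, 0.78 ± 0.22 in WT, whose HF livers were all above the LF ones, and 0.48 ± 0.20 in KO, and neither passed (edgeR adjusted p = 0.338 and 0.546). The average was not past the threshold in the 25 livers low in markers of other tissues (-0.38, adjusted p = 0.0579).

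In fasted mice Mat1a was the 1 gene of the 9 that edgeR called for diet, in WT with 1.12% of all genes and in KO with 1.68%. In the same fit 7 of the 9 had an unadjusted p under 0.05 in WT and 3 in KO. Over all genes 1419 of 11566 had one in WT and 1510 in KO. Cth in WT (-1.39 ± 0.35, edgeR adjusted p = 0.0518) and Cbs in KO (-0.60 ± 0.17, edgeR adjusted p = 0.0513) were close to the threshold, and DESeq2 and limma voom called both. In fed mice edgeR called none of the 9, where it called 0.0778% of all genes in WT and 0.00865% in KO. Among the 9 genes 1 had an unadjusted edgeR p under 0.05 in each of these comparisons. Over all 11566 genes, 604 had one in WT and 840 in KO. Neither DESeq2 nor limma voom called any of the 9, but in edgeR Mat1a passed in WT with only the 2 groups (0.78, adjusted p = 0.0168).

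The plot of fasting effects on the 2 diets shows how the 9 genes compare with 59 other genes of the pathway. Each point joins estimates from different mice, since LF and HF livers are separate. The mean LF effect was 2.93 for Mat1a, 2.23 for Bhmt, 1.10 for Cth and 0.88 for Ahcy. The mean HF effect of the same genes was 0.83, 0.96, -0.19 and 0.37. Of these differences only that of Mat1a passed in the edgeR fit. Before adjustment 5 of the 9 genes had an edgeR p under 0.05 for the difference, as did 1533 of all 11566 genes.

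**Figure D3:**
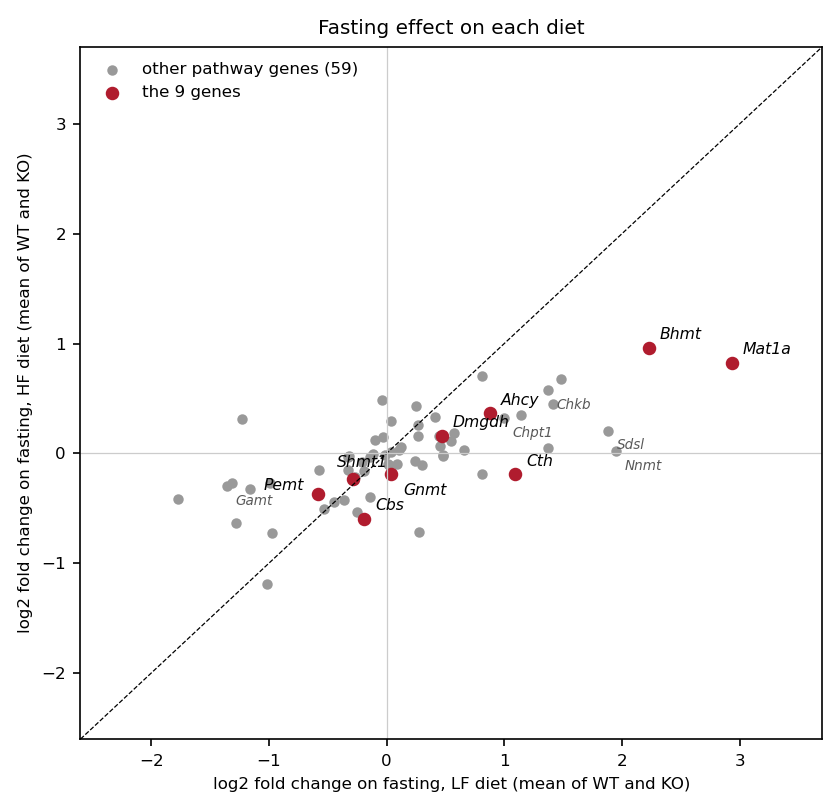
Log2 fold change on fasting on the LF diet (horizontal axis) and on the HF diet (vertical axis), each the mean of WT and KO, for the 9 genes (red) and 59 other tested genes of the pathway (grey). The dashed line marks equal effects, and Mat1a lies at 2.93 on LF and 0.83 on HF.

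The genotype comparison asked whether MCAD loss alters these genes. None of the 9 passed, on average or in any of the 4 conditions, while Acadm itself was the 1 gene called on average (0.00865% of genes; -4.44 ± 0.12, edgeR adjusted p = 6.60e-27). The average KO to WT estimates of the 9 ran from -0.11 to 0.07. The 95% interval was -0.29 to 0.13 for Mat1a, -0.36 to 0.46 for Bhmt, -0.16 to 0.23 for Ahcy, -0.16 to 0.17 for Cbs and -0.48 to 0.27 for Cth, and changes within those bounds are not excluded. None of the 9 had an unadjusted p under 0.05 on average, and 1 did in LF fed mice: Cbs, at 269 to 319 CPM in KO and 204 to 255 CPM in WT (0.36 ± 0.17), which did not pass after adjustment (edgeR adjusted p = 1). Over all 11566 genes, 335 had an unadjusted edgeR p under 0.05 on average and 450 in LF fed mice. DESeq2 and limma voom called 0 of the 9.

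Nor did genotype change the response past the threshold. No gene of the table was called for a difference in fasting effect between KO and WT (0%, with 573 of 11566 genes at an unadjusted p under 0.05) or in diet effect (0%, with 397). Among the 9 the fasting difference ran from -0.32 for Gnmt to 0.21 for Mat1a (95% interval -0.21 to 0.63), with 0 of 9 at an unadjusted p under 0.05. For the diet difference 1 of 9 was, Cbs (-0.34 ± 0.16). DESeq2 and limma voom called 0 of the 9 in both.

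Around the 9 genes, 65 further genes were listed by role, of which 59 passed the filter. For fasting, 13 rose, 12 fell and 34 did not pass, against the 18.9% called among all genes, and their median log2 fold change was 0.01. The plot of the other pathway genes shows 57 of the estimates with their errors.

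Of the 8 genes of methionine use and remethylation, 3 rose and 1 fell. Beside Mat2a and Bhmt2, Ahcyl1, an Ahcy-like protein, rose by 0.23 ± 0.08 (edgeR adjusted p = 0.029). Mtr, the folate-dependent methionine synthase, was not called (-0.79 ± 0.34, edgeR adjusted p = 0.103).

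Of 19 tested folate genes, 2 rose, 5 fell and 12 did not pass. Slc25a32, the mitochondrial folate carrier, rose by 1.08 ± 0.19 (edgeR adjusted p = 4.81e-05). Folr2, a folate receptor of macrophages, had a log2 fold change of -1.10 ± 0.20 (edgeR adjusted p = 5.85e-05), and of the 5 Kupffer cell markers 1 fell. Both genes were low, Slc25a32 at 2.01 to 18 CPM and Folr2 at 1.2 to 18 CPM in the livers used. Of the 4 genes of choline oxidation 1 rose, Chdh, which makes the betaine that Bhmt consumes (0.34 ± 0.10, edgeR adjusted p = 0.00957).

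**Figure D4:**
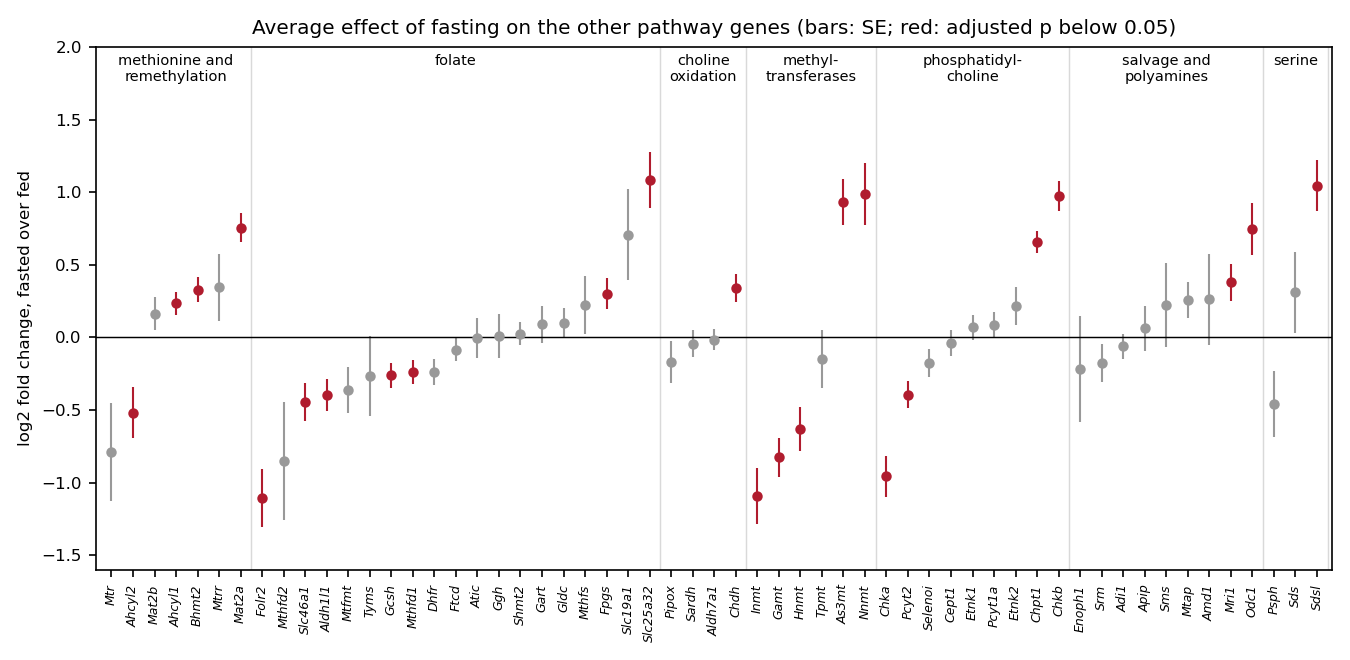
Average log2 fold change on fasting (vertical axis, bars are 1 SE) of 57 of the 59 other pathway genes, grouped by role and ordered by estimate within each group. Red points have an adjusted p below 0.05: 13 lie above 0 and 11 below.

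The 7 small-molecule methyltransferases split. Of them 4 fell, among them Inmt, the indolethylamine methyltransferase (-1.09 ± 0.19, edgeR adjusted p = 1.59e-04), Gamt, which makes creatine (-0.82 ± 0.14, edgeR adjusted p = 2.49e-05), and Hnmt, which methylates histamine (-0.63 ± 0.15, edgeR adjusted p = 0.00211). Another 2 rose: Nnmt, which methylates nicotinamide (0.99 ± 0.21, edgeR adjusted p = 0.00132), and As3mt, the arsenite methyltransferase (0.93 ± 0.16, edgeR adjusted p = 4.43e-05). Hence no single direction held for the users of the methyl donor, Pemt and Gnmt included.

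Phosphatidylcholine can also be made from choline, and there the kinases moved apart. Chkb, choline kinase beta, rose by 0.98 ± 0.10 (edgeR adjusted p = 2.29e-09) and Chpt1, the cholinephosphotransferase, by 0.66 ± 0.07 (edgeR adjusted p = 9.94e-09). Chka, choline kinase alpha, had a log2 fold change of -0.96 ± 0.14 (edgeR adjusted p = 7.45e-06), and Pcyt2, of the ethanolamine branch, one of -0.39 ± 0.09 (edgeR adjusted p = 0.00179). The other 5 of 9 did not pass. Of the 9 salvage and polyamine genes 2 rose, Odc1 (0.75 ± 0.18) and Mri1 (0.38 ± 0.13), and of 3 tested serine genes 1 rose, Sdsl, a serine dehydratase-like enzyme (1.05 ± 0.18, edgeR adjusted p = 2.13e-05).

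For the difference of the fasting effect between diets, 5 of the 59 passed, against 2.46% of all genes: Sdsl (-1.68 ± 0.36), Chpt1 (-0.68 ± 0.15), Nnmt (-1.93 ± 0.42), Chkb (-0.79 ± 0.20) and Gamt (1.05 ± 0.27), with edgeR adjusted p from 0.00615 to 0.0272. All 5 moved less on HF than on LF, as Mat1a did. For diet on average 4 of the 59 passed, against 3.49% of all genes, with Sdsl (-1.09 ± 0.18) and Chka (-0.50 ± 0.14) lower on HF and Gamt (0.61 ± 0.13) and Hnmt (0.66 ± 0.15) higher. For genotype edgeR called 0 of the 59.

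Fasting alone accounted for 68.6% of the variance of log2 CPM of Mat1a over the 30 livers, 64.2% for Bhmt and 53% for Ahcy, and for 1.41% for Gnmt. The 8 groups together accounted for 94.7% for Mat1a, the most of the 9, and for 25.7% for Shmt1, the least, so most of the spread of Shmt1 was between livers of the same group. Sequencing lane alone accounted for at most 6.33%, for Cth, and genotype for at most 3%, for Shmt1.

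Over the 30 livers Mat1a, Bhmt and Ahcy went together, with Pearson's r of log2 CPM of 0.87 for Mat1a and Bhmt, 0.80 for Mat1a and Ahcy and 0.86 for Bhmt and Ahcy. The livers share their condition, so the deviations from the group means were correlated as well. There the values were 0.43, 0.14 and 0.66, and the highest were 0.83 for Bhmt and Dmgdh and 0.75 for Gnmt and Shmt1. These are descriptions over 30 livers that also share depth and RNA handling. The plot of correlations gives both values for each pair.

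**Figure D5:**
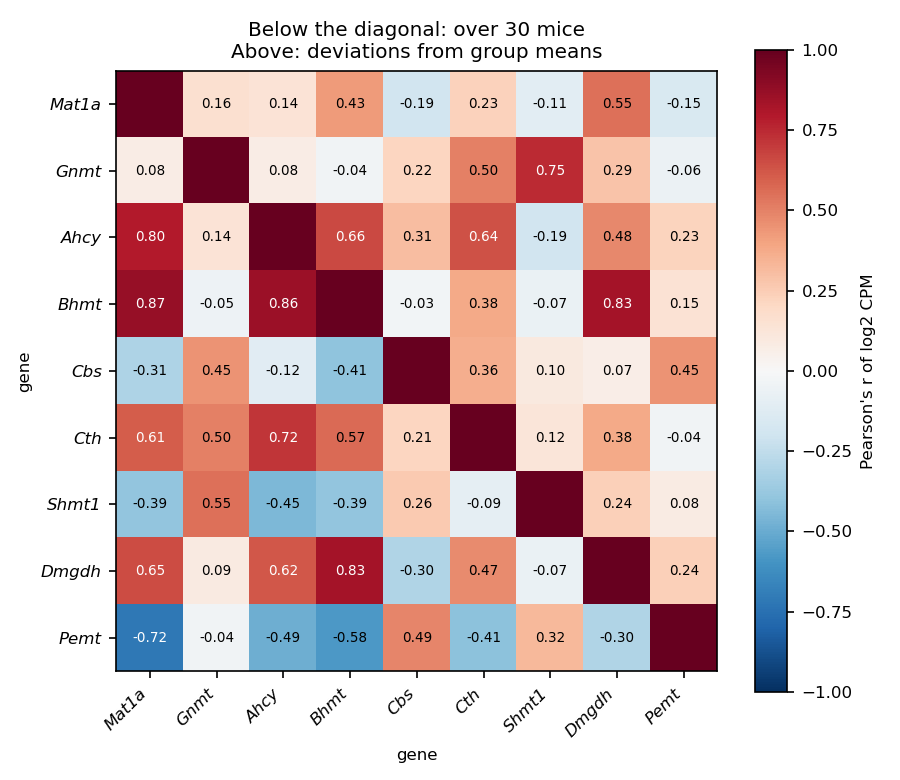
Pearson's r of log2 CPM for each pair of the 9 genes, over 30 livers below the diagonal and for deviations from the group means above it, with the colour scale from -1 to 1. Bhmt and Dmgdh had 0.83 in both.

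The genes most like each of the 9 were listed as those with the highest r over the 30 livers. For Mat1a they were Por, the electron donor of the cytochromes P450 (r = 0.97), Bnip3, a mitophagy receptor (0.96), and Gpt2, the mitochondrial alanine aminotransferase (0.95). For Ahcy they were Serinc3 (0.92), Gfra1 (0.90) and Asl, of the urea cycle (0.88). For Bhmt the first was Gm5096 (0.92), which shares sequence with it, followed by Cmbl (0.90) and Hsd17b10 (0.90). For Dmgdh they were Gm5096 (0.84), Bhmt (0.83) and Oat, the ornithine aminotransferase (0.78).

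For Cth the most alike were Got1, the cytosolic aspartate aminotransferase (0.85), Tdo2, the tryptophan dioxygenase (0.84), and the amino acid carrier Slc38a4 (0.84). For Cbs they were Cry1, a clock gene (0.73), Qprt (0.72) and Ap5s1 (0.72). For Pemt they included Gstm3 (0.84) and Haao (0.83). For Gnmt the highest were Atp5d (0.76), Gm16418 (0.74) and Ece1 (0.71), and for Shmt1 Spc24 (0.80), Tuba1c (0.77) and Eipr1 (0.74).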

How the data were processed

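Total RNA from 32 mouse samples, described as liver, had been prepared with the Lexogen QuantSeq 3′ mRNA kit. It was sequenced as single reads of 50 bases on a HiSeq2500. Per the methods and labels, the authors aligned reads to GRCm38 with HISAT 0.1.5, sorted them with SAMtools 1.2 and counted them per gene with HTSeq 0.6.1p1 in union mode; the strand setting was not given in the sources used here. The deposited values are raw counts per gene, 20076 Ensembl identifiers by 32 mice, and 2031053 to 4292200 counts per mouse (median 2899001), which limits what can be seen of low genes. Names and positions came from GENCODE (GRCm38), which matched 19918 identifiers. The other 158 held 0.115% of counts.

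Groups followed the sample titles. The fit used 30 mice and all 8 groups in 1 model (edgeR 4.0.16 in R 4.3.3, filterByExpr, TMM factors, robust quasi-likelihood test, Benjamini-Hochberg over 11566 genes, call below 0.05). Averages, strata and differences of effects were contrasts of that model. SE is the log2 fold change over the square root of F, and 95% intervals use 22 residual degrees of freedom. The titles number the mice within each group and nothing ties numbers across groups. Log2 CPM for correlations used a prior count of 2. Members, lists and motifs were chosen with earlier results of these data known. The text names all 9 members, Acadm, genes needed to judge shared reads or tissue, listed pathway genes called for fasting (at most 12 by p, others added after their values were seen), diet, genotype or the difference between diets, and the 3 genes most correlated with each member. The model was tested on simulated data (11566 genes, 200 changed in fasting, a fixed dispersion of 0.1), for the average fasting effect over 30 mice only. The changed genes were drawn from those with a mean above 5 CPM. Of these the model found 100% of 2-fold and 100% of 4-fold changes, and 6.98% of its 215 calls were wrong. Changes in genes below that level, effects in a single stratum, effects of diet or genotype, and differences of effects were not simulated. Their power is thus not known from this simulation. Alternatives were DESeq2 1.42.0, limma voom 3.58.1, other size factors, no filter, lane, age or replicate number as terms, single lanes, only the compared groups, 31 or 32 mice, and each mouse left out. Leaving out 5 mice with over 100 CPM of heart, pancreas or adrenal markers was chosen after seeing the data. A few genes that the rules would name are not reported here.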

Additional observations from a re-analysis of the deposited data

Results flagged for a closer look

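Among 54 sets of 4 livers (9 genes in the 6 groups with 4 mice kept), 1 liver stood apart by Dixon's ratio at the 95% level: Pemt in KO LF fasted replicate 4, at 71.6 CPM against 127 to 132 CPM in the other 3, with a ratio of 0.917. Chance gives such a value in about 1 of 20 sets. The same liver had 124 CPM of adrenal cortex markers, and its part in the low value was not tested.

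The fasting effect on Mat1a differed between diets, by -2.11 on the log2 scale (edgeR adjusted p = 3.03e-08, tested as an interaction). The 8 fasted LF livers were all above the 7 fasted HF livers.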

How the results depend on the processing

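Of the effects on the 9 genes that were called in the fit or in an alternative, none turned direction. Effects never called could, as for genotype on Mat1a, -0.50 within lane 7 and 0.21 within lane 8. The 6 genes called for fasting stayed 6 to 8 when each mouse was left out, but were 3 within lane 7 and 2 with all 32 mice, where the heart library is included. With all 32 mice the count was also 2 for fasting in WT LF (from 4), 1 in KO LF (from 5), 0 in KO HF (from 2), and 0 for diet, for diet in WT fasted, for diet in KO fasted and for the difference between diets (each from 1). With 31 mice it was 1 in KO HF and 2 for diet in WT fasted. With only the compared groups it was 2 in KO LF, 1 for diet in WT fed (Mat1a, from 0) and 0 for diet in KO fasted. DESeq2 gave 3 for diet, 3 for the difference between diets and 2 for diet in fasted mice of either genotype, limma voom gave 2, 1, 2 and 2, and the DESeq2 size factors gave 2 in KO fasted. Age as a term gave 2 for the difference between diets and 2 for diet in WT fasted. Diet gave 0 within lane 7, 0 within lane 8 and 0 in the 25 livers low in markers of other tissues. Leaving out each mouse gave 3 to 5 for fasting in WT LF, 3 to 5 in KO LF, 0 to 1 in WT HF, 0 to 2 in KO HF, 1 to 3 for diet, 1 to 2 for diet in fasted mice of each genotype and 1 to 4 for the difference between diets. Beyond the change in mice, genes or spread that each alternative makes, the cause was not tested.

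Same-numbered mice did not deviate together (98 pairs, r from -0.204 to 0.168, 2 above 0.1). With the replicate number as a block KO HF had 1 gene called, and the other counts of the 9 were the same.

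Of all genes, 2187 were called for fasting, against 344 within lane 7 and 1449 within lane 8. For diet 404 became 588 with DESeq2, 81 with all 32 mice, 53 within lane 7, 85 within lane 8 and 229 in the 25 livers. For the difference between diets 285 became 430 with DESeq2, 22 with all 32 mice, 152 with 31 mice, 169 in the 25 livers, 178 without KO HF fasted replicate 1 and 170 without WT LF fed replicate 3. For fasting in WT LF 872 became 414 with all 32 mice, 541 without WT LF fed replicate 3 and 568 without WT LF fed replicate 4. For fasting in KO LF 1595 became 735 with all 32 mice and 759 with only the compared groups. For genotype 1 became 2 without WT HF fed replicate 2.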
